A study of Mus musculus with 6 samples.

Results

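The miR-148 and miR-152 family comprises 6 mature microRNAs (miRNAs) cut from 3 hairpin precursors, and all 6 were found by name among the 911 mature miRNA references of the series: mmu-miR-148a-3p, mmu-miR-148a-5p, mmu-miR-148b-3p, mmu-miR-148b-5p, mmu-miR-152-3p and mmu-miR-152-5p (below without mmu, the prefix for mouse). Each of the 6 had reads in every library, none was part of a joint entry, and all 6 passed the filter on low counts. The series set macrophages lacking apolipoprotein E (ApoE), a lipid-transport protein that macrophages secrete, against wild-type macrophages. Bone marrow of male mice aged 6 to 12 weeks, ApoE-KO (called EKO) or WT, was cultured in both groups with the growth factor M-CSF (mouse, recombinant) at 25 ng/mL, added every 2 days over 6 days, and small RNA was sequenced from 3 biological replicates of each genotype. The cultures of both genotypes had 10% serum and 1% penicillin and streptomycin. The series' text as used here does not give the strain or the ApoE allele. Small RNA counts do not measure Apoe mRNA, so the genotype labels could not be checked.

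A miRNA guides Argonaute proteins to messenger RNAs that pair with its seed, the bases 2 to 8 from its 5′ end, and so lowers their translation and stability. Of each hairpin usually 1 arm is loaded and kept, while the opposite arm is mostly degraded; in this family the 3p arm is the guide. The family is known for acting on the transcripts of DNA methyltransferase 1, of the LDL receptor and of the cholesterol exporter ABCA1, and for restraining Toll-like receptor responses of dendritic cells through CaMKII alpha.

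The 3 guide arms share 1 seed and differ from each other at 2 or 3 positions, all outside it. They are shown 5′ to 3′ with the seed in capitals, because the seed makes them 1 family and the few differences let reads be assigned to a member (RefSeq, GRCm38.p6).
miR-148a-3p: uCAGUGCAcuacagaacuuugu
miR-148b-3p: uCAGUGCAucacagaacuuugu
miR-152-3p: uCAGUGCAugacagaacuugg

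Counted from the 5′ end, miR-148b-3p differed from miR-148a-3p by C9U and U10C. Over the 21 positions it covers, miR-152-3p differed from miR-148a-3p by C9U, U10G and U20G. No read of the 6 members was shared with another reference: the total and the multimap-adjusted counts were equal in all 36 values of 6 members in 6 libraries. The other arms are less alike. The 5p arms of mir-148a and mir-148b share their seed, and that of mir-152 has another.
miR-148a-5p: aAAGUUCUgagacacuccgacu
miR-148b-5p: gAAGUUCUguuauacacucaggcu
miR-152-5p: uAGGUUCUgugauacacuccgacu

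The hairpins are shown with both arms in capitals, the 5p arm first, since the arms of 1 precursor are compared below.
Mir148a: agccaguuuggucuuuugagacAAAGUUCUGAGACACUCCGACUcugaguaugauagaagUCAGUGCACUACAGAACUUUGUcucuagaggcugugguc
Mir148b: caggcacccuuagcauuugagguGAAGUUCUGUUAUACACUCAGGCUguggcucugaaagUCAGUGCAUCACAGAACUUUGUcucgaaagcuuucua
Mir152: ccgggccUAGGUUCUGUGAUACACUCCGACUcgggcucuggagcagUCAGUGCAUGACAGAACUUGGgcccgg

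The 3 genes lie on different chromosomes (GRCm38.p6). Mir148a, at chr6:51269812-51269910 on the minus strand, overlaps no annotated gene of GENCODE M21, and the nearest coding gene, Nfe2l3, is 162760 bases away. Mir148b, at chr15:103285125-103285221 on the plus strand, lies within an intron of Copz1 in all 4 annotated transcripts of that gene. Mir152, at chr11:96850393-96850465 on the plus strand, lies within an intron of Copz2 in 3 of its 5 transcripts and overlaps no exon. Copz1 and Copz2 encode paralogous zeta subunits of the coatomer coat, on the same strand as the miRNAs they hold.

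The libraries held 34651511 to 41331604 reads on mature miRNAs, and the member with the fewest reads in any library had 149. Fewer miRNAs were detected in EKO (543 to 591) than in WT (664 to 698). All 6 macrophage and myeloid marker miRNAs had reads. Their summed level was 140357 to 168502 counts per 1e+06 mature reads (CPM) in EKO and 213591 to 226571 in WT. Most of that sum, and of its difference, was 1 miRNA, miR-21a-5p, with means of 151420 CPM in EKO and 217886 in WT. Of the others, miR-146a-5p averaged 2197 and 2119 CPM, miR-142a-3p 714 and 993, miR-142a-5p 183 and 291, and miR-223-3p 257 and 405. Of markers of other cells, the hepatocyte miRNA miR-122-5p ranged from 101.0 to 153.6 CPM in EKO and 47.2 to 58.8 in WT, and 4 stromal miRNAs summed to 75.9 to 117.6 and 179.3 to 220.8 CPM. The erythroid (2 of 3 with reads), lymphoid (2 of 2), endothelial and megakaryocyte (1 of 1), epithelial (5 of 5), muscle (2 of 3) and neuronal (1 of 2) markers summed to at most 338.6 CPM each in any library. The part of these shifts in the members' values was not tested.

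The guide arm of mir-148a was 1.93-fold as abundant in EKO as in WT macrophages, while the guide arms of mir-148b and mir-152 were not higher. Levels of miR-148a-3p were 136965, 112432 and 85928 CPM in EKO replicates 1 to 3 and 62624, 65264 and 45642 CPM in WT. Every EKO library lay above every WT library, the lowest EKO value being 1.32-fold the highest WT value, and the libraries within a genotype also differed widely. The means were 111775 ± 25525 CPM in EKO against 57843 ± 10649 in WT (n = 3 each, SD). The log2 fold change was 0.98 ± 0.23 (SE), with an adjusted p of 0.0766 over all 575 miRNAs tested (edgeR's quasi-likelihood test, adjusted after Benjamini and Hochberg), which does not pass 0.05. In that test 0% of all miRNAs passed, and 21.4% had an unadjusted p under 0.05 (8.35% higher, 13% lower). At that unadjusted level stood 2 of the 6 members, miR-148a-3p higher and miR-152-3p lower. Their unadjusted values in edgeR were 0.00246 and 0.0239. For miR-152-3p the unadjusted p was 0.0320 with limma-voom but 0.0522 with DESeq2. It was 0.0592 with edgeR among miRNAs averaging at least 10 CPM. DESeq2, which called 14.3% of the miRNAs it gave an adjusted p, and limma-voom, which called 5.57%, both called miR-148a-3p (adjusted p = 0.00065 and 0.0410).

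Among the 251 miRNAs averaging at least 10 CPM, edgeR called 23.5% of all miRNAs (10.8% higher, 12.7% lower) and 1 of the 5 members in that set, miR-148a-3p (log2 fold change 1.01, adjusted p = 0.0231). That call was lost without EKO replicate 2 (adjusted p = 0.0954, edgeR) and without WT replicate 1, 2 or 3 (0.0563, 0.0589 and 0.0844). Of the 6 fits over all miRNAs that left out 1 library, the call appeared only without EKO replicate 3 (adjusted p = 0.0277, edgeR), the EKO library with the lowest level. By level, miR-148a-3p ranked 3 in EKO replicate 1 and 4 in each of the other 5 libraries. Its share of each library thus weighs on the CPM of all other miRNAs. When library totals and TMM factors were computed without it, its log2 fold change was 1.00 and those of miR-148b-3p and miR-152-3p were -0.10 and -0.33, little different from -0.12 and -0.35.

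**Figure D1:**
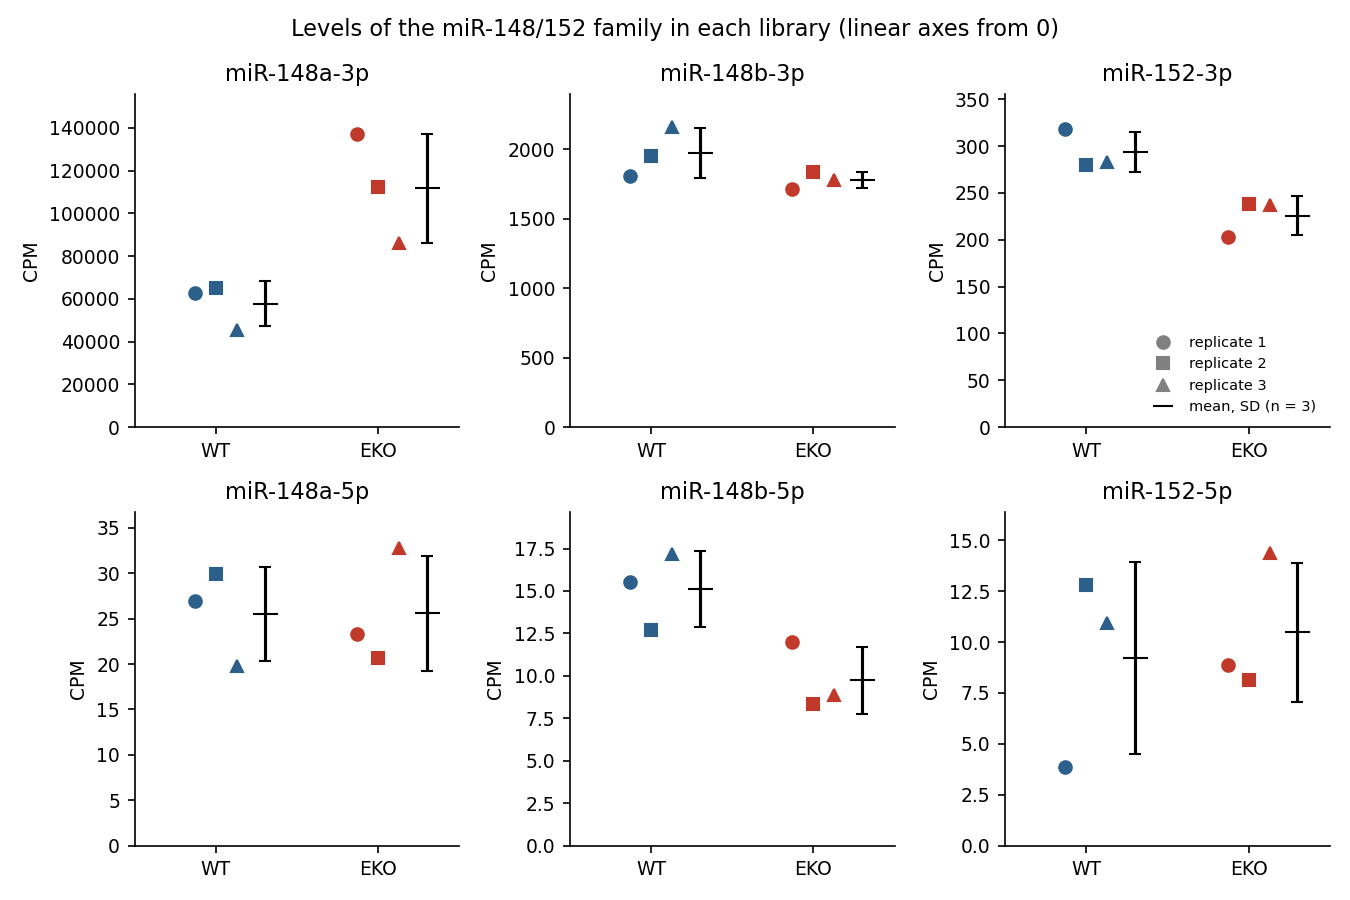
Level of each member (CPM, linear axes from 0, a separate scale in each panel) in the 3 WT libraries (blue) and the 3 EKO libraries (red), with the mean and SD of each genotype in black. The EKO points of miR-148a-3p all lie above the WT points, those of miR-152-3p and miR-148b-5p all lie below, and the genotypes overlap for the other 3 members.

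The guide arm of mir-148b, miR-148b-3p, from the Copz1 intron, stood at 1717, 1836 and 1779 CPM in EKO and 1805, 1953 and 2161 CPM in WT. The genotypes overlapped, and the WT libraries were spread more widely than the EKO libraries. The means were 1777 ± 59.5 and 1973 ± 179 CPM (n = 3 each, SD), and the log2 change was -0.12 ± 0.10 (SE; adjusted p = 0.645, edgeR). Its direction turned to 0.20 when each library's trend with the GC content of the mature sequences was removed, a fit added after seeing the data.

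The guide arm of mir-152, miR-152-3p, from the Copz2 intron, stood at 202.4, 238.3 and 236.8 CPM in EKO and 317.9, 280.1 and 282.5 CPM in WT. Each EKO value was under each WT value. The means were 225.9 ± 20.3 and 293.5 ± 21.2 CPM (n = 3 each, SD), and the log2 fold change of -0.35 ± 0.13 (SE) did not pass (adjusted p = 0.154, edgeR). It shrank to -0.06 with the GC trend removed, and was -0.24 with the GC trend removed among miRNAs averaging at least 10 CPM. The GC content is 40.9% in miR-148a-3p and miR-148b-3p and 47.6% in miR-152-3p, and the same correction took miR-148a-3p to 1.30 and the median of all tested miRNAs from -0.16 to 0.05.

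The passenger arms were scarce, from 3.88 to 32.7 CPM, and none passed the test with edgeR, DESeq2 or limma-voom. Levels of miR-148a-5p, the arm opposite the abundant guide, were 23.4, 20.7 and 32.7 CPM in EKO and 26.9, 29.9 and 19.8 CPM in WT. The genotypes overlapped, with means of 25.6 ± 6.34 and 25.5 ± 5.19 CPM (n = 3 each, SD), and the log2 change was 0.02 ± 0.30 (SE; adjusted p = 0.995, edgeR). Levels of miR-148b-5p were 12.0, 8.32 and 8.90 CPM in EKO and 15.5, 12.7 and 17.2 CPM in WT. Here too each EKO value was under each WT value, but the log2 fold change of -0.59 ± 0.36 (SE) did not pass (adjusted p = 0.455, edgeR). With the GC trend removed it was -0.26, and -0.29 at a mean of at least 10 CPM. Levels of miR-152-5p were 8.89, 8.15 and 14.4 CPM in EKO and 3.88, 12.8 and 10.9 CPM in WT, with 1 low WT library. Their log2 change was 0.20 ± 0.53 (SE; adjusted p = 0.930, edgeR). In all, 3 of the 6 members had genotypes that did not overlap, 1 higher and 2 lower in EKO, where 29.6% of all tested miRNAs did so (11.8% higher, 17.7% lower).

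**Figure D2:**
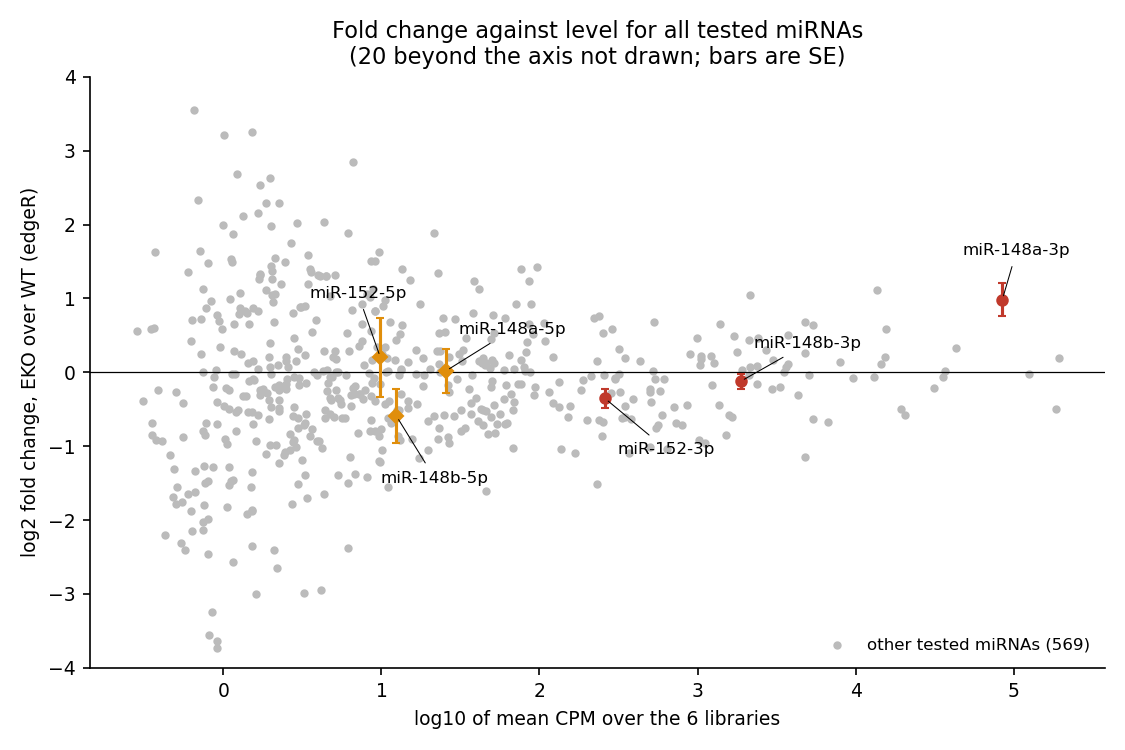
Fold change of EKO over WT (log2, edgeR) against mean level (log10 CPM) for the 575 tested miRNAs, with guide arms as red circles and passenger arms as orange diamonds with SE bars. miR-148a-3p stands at the abundant end at 0.98, miR-148b-3p and miR-152-3p stand just under 0, and the passenger arms lie among scarce miRNAs of wide spread.

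Because both arms come from the same hairpin, the reads of the 3p arm for each read of the 5p arm were compared between genotypes; such a ratio does not depend on the library total. Ligation and PCR favour some sequences, so the size of the ratio within a library is not a ratio of molecules. For mir-148a the ratio was 5863, 5437 and 2624 in EKO and 2327, 2180 and 2301 in WT. The 3 WT libraries were nearly equal, EKO replicates 1 and 2 were far above them, and EKO replicate 3 was only just above. The log2 ratio was 12.09 ± 0.64 in EKO and 11.15 ± 0.05 in WT (n = 3 each, SD), a difference of 0.95 (two-sided exact permutation p = 0.1, the smallest that 3 against 3 allows, and 0.2 adjusted over the 6 ratios tested).

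The other precursors were less lopsided. For mir-148b there were 142.8, 220.2 and 199.6 reads of the 3p arm for each 5p read in EKO and 116.3, 153.3 and 125.7 in WT. EKO replicate 1 lay below WT replicate 2, so the genotypes overlapped, with a log2 difference of 0.50 (exact permutation p = 0.2, adjusted 0.24). For mir-152 the ratio was 22.7, 29.2 and 16.5 in EKO and 81.7, 21.8 and 25.8 in WT, a log2 difference of -0.69 (exact permutation p = 0.5, adjusted 0.5). The high WT value belongs to replicate 1, the library with 149 reads of miR-152-5p. Without it the difference was -0.10.

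The same test set the guide arms against each other, which asks whether members with 1 seed moved alike. For each read of miR-148b-3p there were 79.8, 61.3 and 48.3 reads of miR-148a-3p in EKO and 34.7, 33.4 and 21.1 in WT. For each read of miR-152-3p there were 676.6, 471.8 and 362.8 in EKO and 197.0, 233.0 and 161.5 in WT. Both ratios were higher in all EKO than in all WT libraries, by 1.09 and 1.32 on the log2 scale (exact permutation p = 0.1 each, adjusted 0.2). Between miR-148b-3p and miR-152-3p the ratio was 8.48, 7.70 and 7.51 in EKO and 5.68, 6.97 and 7.65 in WT, where the genotypes overlapped (log2 difference 0.23, exact permutation p = 0.2, adjusted 0.24).

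**Figure D3:**
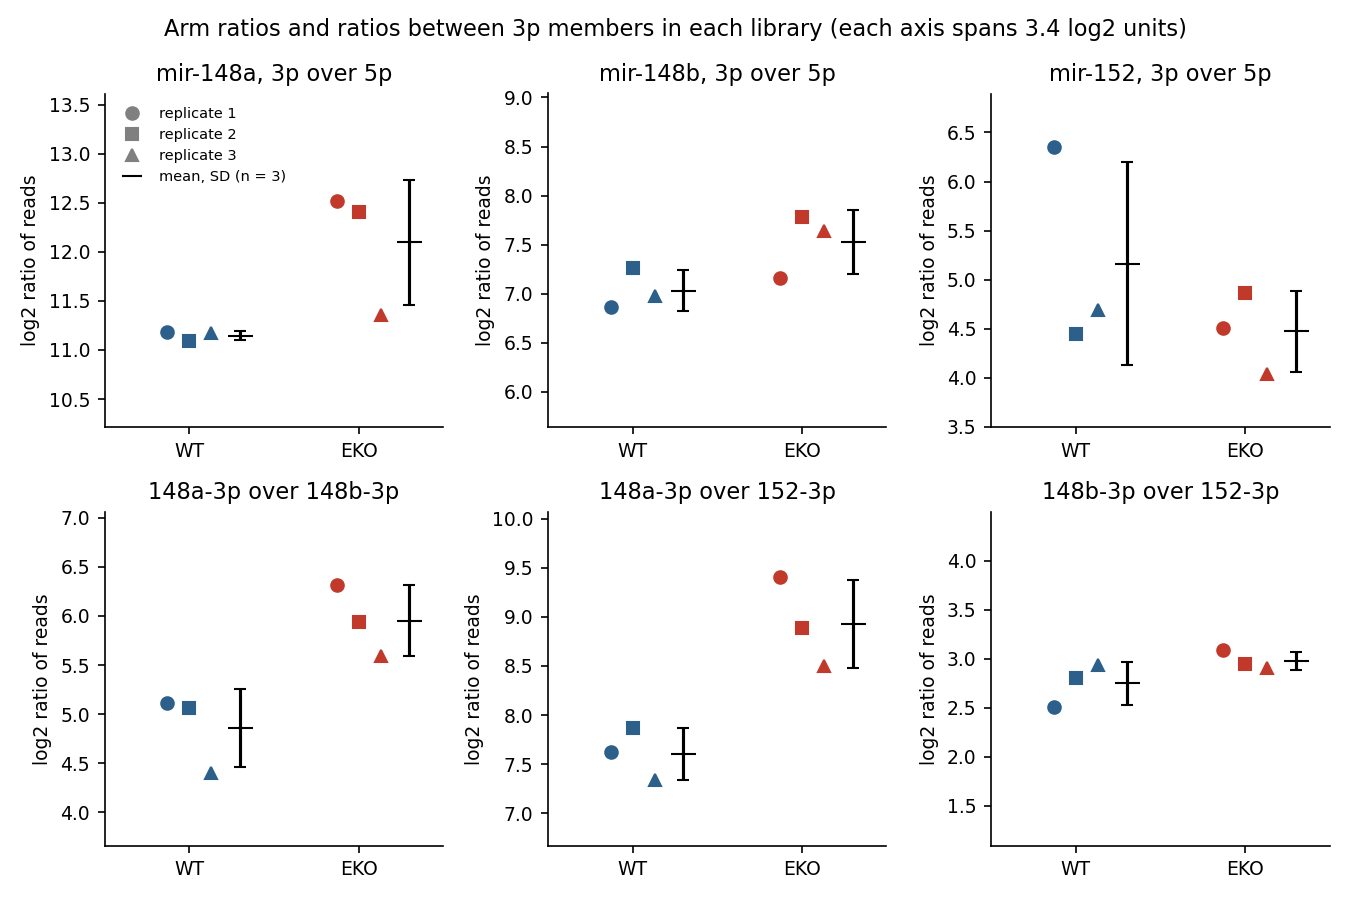
Log2 ratio of reads in each library for the 2 arms of each precursor (top) and for pairs of guide arms (bottom), WT in blue and EKO in red with mean and SD; every axis spans 3.4 log2 units. The mir-148a arm ratio and both ratios with miR-148a-3p on top are higher in all EKO libraries, and the other 3 ratios overlap.

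Together the 3 guide arms with the shared seed took 138884, 114506 and 87944 CPM in EKO and 64746, 67497 and 48085 CPM in WT. The summed level averaged 113778 ± 25478 CPM in EKO against 60110 ± 10504 in WT (n = 3 each, SD), 1.89-fold. Nearly all of it was miR-148a-3p, at 98.2% ± 0.455 of the sum in EKO and 96.1% ± 1.03 in WT (n = 3 each, SD). The share of miR-148b-3p was 1.62% ± 0.394 and 3.39% ± 0.956, and that of miR-152-3p was 0.208% ± 0.0618 and 0.498% ± 0.0865. Averaged over all 6 libraries, the order of levels was miR-148a-3p, 45.2-fold above miR-148b-3p, which was 7.22-fold above miR-152-3p, and these 3 ranges were far apart. The ranges of miR-148a-5p and of the other 2 passenger arms were closer, and those of miR-148b-5p and miR-152-5p overlapped. The RefSeq table held a sequence for 763 of the 911 mature references, and the others were not searched for the seed. No other miRNA of that table had this seed at bases 2 to 8. A further 7 have it shifted by 1 position, at bases 1 to 7, the miR-130 and miR-301 type. Of these only miR-130b-3p averaged at least 10 CPM, at 18.2 ± 2.18 CPM in EKO against 15.1 ± 1.08 in WT (n = 3 each, SD, log2 fold change 0.30 ± 0.29 SE, adjusted p = 0.702, edgeR). It is shown with the shared letters in capitals.
miR-130b-3p: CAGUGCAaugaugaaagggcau

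The number of distinct read sequences assigned to a member, a count that depends on depth, is reported apart from its level. For miR-148a-3p it was 730, 725 and 721 in EKO and 712, 727 and 664 in WT. Reads per distinct sequence, not scaled to depth, were 6501, 6131 and 4420 in EKO and 3381, 3710 and 2812 in WT. With numbers of sequences so close, they largely repeat the read counts and add nothing apart from the level. For miR-148b-5p the distinct sequences numbered 10, 10 and 22 in EKO and 28, 25 and 39 in WT, lower in every EKO library. For miR-152-3p they numbered 142, 182 and 178 in EKO and 223, 194 and 219 in WT, again lower in every EKO library. The same order held for miR-148b-3p, with 316, 356 and 357 in EKO and 371, 382 and 390 in WT. The genotypes overlapped for miR-148a-5p (30, 25 and 42 against 41, 45 and 42) and for miR-152-5p (14, 19 and 32 against 14, 36 and 28). The distinct sequences were thus lower in every EKO library for 3 of the 6 members and higher for 0, where 32.5% of all tested miRNAs were lower and 1.22% higher. The EKO libraries held 34651511, 39532544 and 37084445 mature reads, and the WT libraries 38440290, 41331604 and 40913114. Fewer miRNAs were also detected in the EKO libraries. The part of depth and of this detection in the lower numbers was not tested.

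Over the 6 libraries, which share their genotype split and kit, the miRNAs averaging at least 10 CPM whose log2 levels ran most nearly parallel to miR-148a-3p were miR-10a-5p (Pearson r = 0.998), miR-744-5p (0.998) and miR-151-3p (0.997). For miR-10a-5p, encoded in a Hox cluster, the levels were 21065, 19180 and 15849 CPM in EKO against 13565, 13644 and 10855 in WT. For miR-151-3p they were 23308, 18804 and 13415 CPM and 9998, 9435 and 6878. Both, like miR-148a-3p, were lowest in replicate 3 of each genotype and higher in all EKO libraries. Most like miR-148b-3p were miR-532-3p (0.941), let-7j (0.925) and miR-223-3p (0.922), and most like miR-152-3p were miR-126a-3p (0.942), miR-125b-5p (0.935) and miR-19b-3p (0.927). All of these likenesses are over 6 libraries and were picked as the highest of 246 miRNAs. Among the members themselves, miR-148a-3p had an r of -0.82 with miR-148b-3p, -0.86 with miR-152-3p and -0.02 with its own passenger arm. These values are of CPM, on which the share of miR-148a-3p weighs, and they span the genotype split. Within neither genotype did miR-148b-3p or miR-152-3p run in strictly opposite order to miR-148a-3p.

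The family's targets are not measured here. Other miRNAs known to act in the pathways of those targets, though not always on the same transcripts, were counted from 2 lists. Of 18 listed miRNAs that act on the LDL receptor, ABCA1 or other steps of lipid handling, 15 were tested and none passed the adjusted threshold with edgeR, where DESeq2 called 2 higher and 5 lower and limma-voom 1 higher and 2 lower. Over all miRNAs DESeq2 called 7.01% higher and 7.3% lower, and limma-voom 1.57% and 4%. At an unadjusted p under 0.05, 2 were higher and 6 lower, where 8.35% and 13% of all tested miRNAs stood, and the median log2 fold change was -0.57, beside -0.16 for all tested miRNAs. The smallest p on the higher side, with miR-148a-3p's direction, was that of miR-122-5p, at 119 ± 30.0 CPM in EKO against 51.8 ± 6.17 in WT (n = 3 each, SD). The other one, named after its value was seen, was miR-128-3p, at 5157 ± 448 and 4386 ± 103 CPM. On the lower side stood miR-30c-5p, which acts on the microsomal triglyceride transfer protein, at 699 ± 187 and 1349 ± 302 CPM. Beside it stood miR-27b-3p, at 15857 ± 2348 and 22743 ± 3407 CPM, and the myeloid miR-223-3p, at 257 ± 27.6 and 405 ± 99.6 CPM. Of 8 miRNAs known to act on DNA methyltransferases, all 8 were tested and none passed with edgeR, where DESeq2 and limma-voom each called 1, lower. At an unadjusted p under 0.05, 0 were higher and 2 lower, beside the same 8.35% and 13% of all. These were miR-143-3p (88.7 ± 22.8 CPM in EKO, 187 ± 22.9 in WT) and miR-29a-3p, which acts on Dnmt3a and Dnmt3b, at 434 ± 54.8 and 584 ± 67.0 CPM. Those with the next smallest p were miR-342-3p, at 167 ± 25.7 and 200 ± 17.5 CPM, and miR-126a-3p, at 68.3 ± 4.35 and 77.8 ± 1.60 CPM. The median of this list was -0.21.

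**Figure D4:**
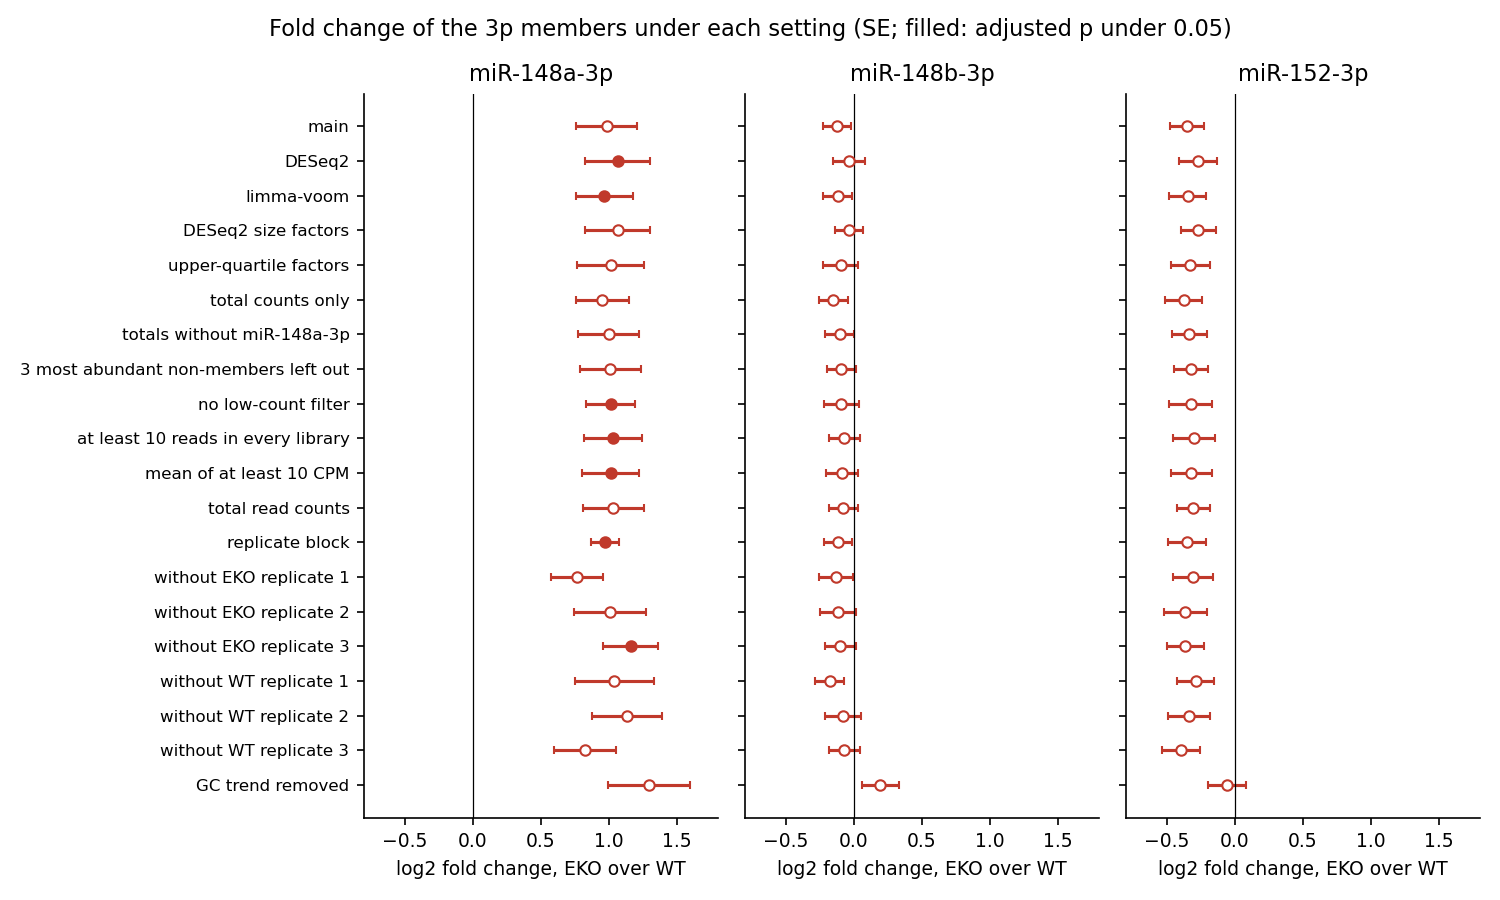
Log2 fold change of EKO over WT with SE for the 3 guide arms under the setting of the text (main) and 19 alternatives, filled where the adjusted p is under 0.05; 10 further alternatives at a mean of at least 10 CPM are not drawn. miR-148a-3p stays between 0.77 and 1.30 and is filled in 7 of the 19 (it also passed in 6 of the 10 not drawn), miR-148b-3p stays between -0.18 and 0.20, and miR-152-3p lies below 0 throughout, at -0.06 with the GC trend removed.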

How the data were processed

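The authors deposited 1 table per library with, per the file headers, distinct and total read counts per reference, an estimated count in which multimapping reads are divided, and a barcode count. The barcode count was 0 throughout, so PCR copies were not removed. Per the submitters' processing notes the build was mm9, and the aligner and counter are not given in the sources consulted. Total RNA was purified on RNeasy Mini columns and libraries used an NEB small RNA kit, per the labels' protocols. Such columns can lose small RNA. Estimated counts were rounded, absent references taken as 0, and 73 stem-loop references (at most 0.00161% of reads) left out. CPM is the count per 1e+06 mature reads, without TMM.

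All miRNAs were fitted with edgeR 4.0.16 (R 4.3.3): TMM, filterByExpr, quasi-likelihood test on genotype, Benjamini-Hochberg adjustment, threshold 0.05. SE is the fold change over the square root of F. Ratios (0.5 counts added) had two-sided exact permutation tests (scipy 1.17.1). DESeq2 1.42.0, limma-voom (limma 3.58.1), other scalings, filters and left-out libraries were alternatives. Members and lists were chosen with earlier results of these data known; a miRNA listed also under an older name was counted once. Named are all members, miRNAs with the seed or its 1-base shift at 10 CPM or more, 4 per list with the smallest p, and 3 per guide arm with the highest r. Intervals and floors from counts cover counting error only. Sequences are RefSeq's (GRCm38.p6), matched by name for 6 of 6 members; hosts are from GENCODE M21.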

Additional observations from a re-analysis of the deposited data

How the results depend on the processing

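No member reversed its direction past the threshold. The call of miR-148a-3p depended on the tool and filter; the cause was not tested. In the text's setting 0 of 6 members and 0 of 575 miRNAs were called. Some settings called 1 member, always miR-148a-3p, given here with the miRNAs called of those tested and its log2 fold change. These were DESeq2 (100 of 699 with an adjusted p, 1.07), limma-voom (32 of 575, 0.97) and a replicate block (62 of 575, 0.97). Others were no low-count filter (52 of 910, 1.01) and a floor of 10 reads per library (43 of 370, 1.03). A mean of at least 10 CPM, with 5 members tested, was another (59 of 251, 1.01). Other scalings, the total read counts and leaving out abundant miRNAs called 0. GC trend removal over all tested miRNAs, added after seeing the data, also called 0 (1.30 for miR-148a-3p, adjusted p = 0.0891, edgeR). Leaving out each library gave 0 to 1 members and 0 to 45 miRNAs, the 45 being of 634 tested without EKO replicate 3. For miR-148a-3p the log2 fold change was then 0.77 to 1.16 and the adjusted p 0.0277 to 0.285 (edgeR). Further fits at a mean of at least 10 CPM were added after seeing the data. They were GC trend removal (49 of 251, 1.30), limma-voom (56 of 251, 1.00), DESeq2 (83 of 251, 1.07) and the block (95 of 251, 1.00). Left-out libraries gave 0 to 91 miRNAs (13 of 254 without EKO replicate 1, 91 of 248 without EKO replicate 3) and 0.81 to 1.21. Each of these fits tested 5 or 6 members and called 1, except without EKO replicate 2 or any WT replicate. Uncalled directions turned for miR-148b-3p with the GC trend removed (0.20, and 0.19 at 10 CPM), for miR-148a-5p without EKO replicate 3 (-0.17, -0.12 at 10 CPM) or WT replicate 3 (-0.15, -0.10 at 10 CPM), and for miR-152-5p without EKO replicate 3 (-0.06) or WT replicate 1 (-0.16, -0.14 at 10 CPM; highest 0.56, without WT replicate 2). The 6 ratios and the summed level kept their direction in all 8 alternatives each. GC content was matched for 84.3% of tested miRNAs, and the others were given the median of those matched. The text's setting did not pair the libraries by replicate number, and the labels give only the number. Over the tested miRNAs, deviations from the genotype means correlated, for equal numbers, at 0.02, -0.02 and 0.09. Of the 3 EKO libraries, 1 correlated best with its own number. With 3 libraries per genotype these values cannot settle whether equal numbers belong together. With the block at 10 CPM the adjusted p of miR-148a-3p was 1.4e-28 (edgeR), too small to be taken at face value from 6 libraries.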
